A study of Mus musculus with 5 samples.

Results

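The switch between epithelial and mesenchymal gene expression was followed in mouse RNA-seq libraries through 10 genes given by symbol, out of the 24421 genes listed in each of 2 deposited tables. All 10 were listed in both tables. Cdh1, Epcam, and Esrp1 stand for the epithelial state (3 genes), and Cdh2, Vim, Snai1, Snai2, Zeb1, Zeb2, and Twist1 for the mesenchymal state (7 genes). The genes were given by name, with no threshold on a measured value.

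The study compared pluripotent cells with somatic cells and then lowered Gldc, the glycine dehydrogenase of the glycine cleavage system, in pluripotent cells. The first table holds MEFs (fibroblasts grown from CF-1 mouse embryos, in medium with 10% FBS and no LIF), iPSCs (somatic cells reprogrammed to pluripotency by introduced transcription factors), and V6.5 cells with no treatment, which are mESCs (embryonic stem cells of the mouse). The second holds V6.5 cells with a nontargeting control shRNA (NTC) and V6.5 cells with an shRNA against Gldc (shGldc). The iPSCs and all V6.5 cells were grown in the same type of medium, with 15% KSR, 1% FBS, and LIF at 1000 U/ml. The deposited shGldc column is headed sh3, whereas the shRNA list of the study names sh1 and sh2 for Gldc, so which sequence was used is not given in the sources used here, and whether the iPSCs were 1 clone is likewise not given. Each group was 1 library, so a spread between replicates, an SD, or a p-value could not be given, and every difference below compares single libraries.

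Expression was deposited as FPKM (fragments mapped to a gene, for each kilobase of its transcript and each 1000000 fragments of the library). The values summed to between 466650 and 576470 per library, and between 11152 and 11833 genes reached an FPKM of 1. Depth, estimated from the spacing of low values, came to between 22200000 and 29100000 fragments per library, and may be lower by a factor of 2 in NTC and shGldc. Gldc was at 0.123 FPKM in MEFs, 70.8 in iPSCs, 59.7 in V6.5 cells, 74.7 in NTC, and 2.07 in shGldc, so shGldc kept 2.77% of the NTC level. All 10 pluripotency markers examined reached an FPKM of 1 in each pluripotent library and 1 of them did so in MEFs, whereas all 10 fibroblast markers did so in MEFs.

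Epithelial cells are held in sheets by E-cadherin, the product of Cdh1, whose cytoplasmic tail binds the catenins. In an epithelial-mesenchymal transition the repressors of the Snail, Zeb, and Twist families lower Cdh1 and other epithelial genes, N-cadherin (Cdh2) takes the place of E-cadherin, and vimentin (Vim) replaces keratins as the main intermediate filament. Fibroblasts pass through the opposite change, a mesenchymal-epithelial transition, early in reprogramming to iPSCs, and mESCs grow as compact colonies joined by E-cadherin. Zeb1 and Zeb2 and the miR-200 family of microRNAs are known to repress each other.

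All 3 epithelial genes were far higher in both pluripotent cell types than in MEFs, and all 7 mesenchymal genes were lower. A gene was called here when log2(FPKM + 0.1) differed by at least 1, which is 2-fold, counting genes that reached an FPKM of 1 in either library compared. Of 12840 genes tested in V6.5 cells over MEFs, 30.3% were called higher and 23.3% lower. Of 13032 genes in iPSCs over MEFs, 31.5% were called higher and 21.3% lower. In both comparisons, which share the MEF library, 25.9% of 13298 genes were called higher and 18.0% lower. The median log2 ratio of all genes was 0.25 in V6.5 cells and 0.31 in iPSCs, so differences between these cell types and MEFs are read against that shift.

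**Figure D1:**
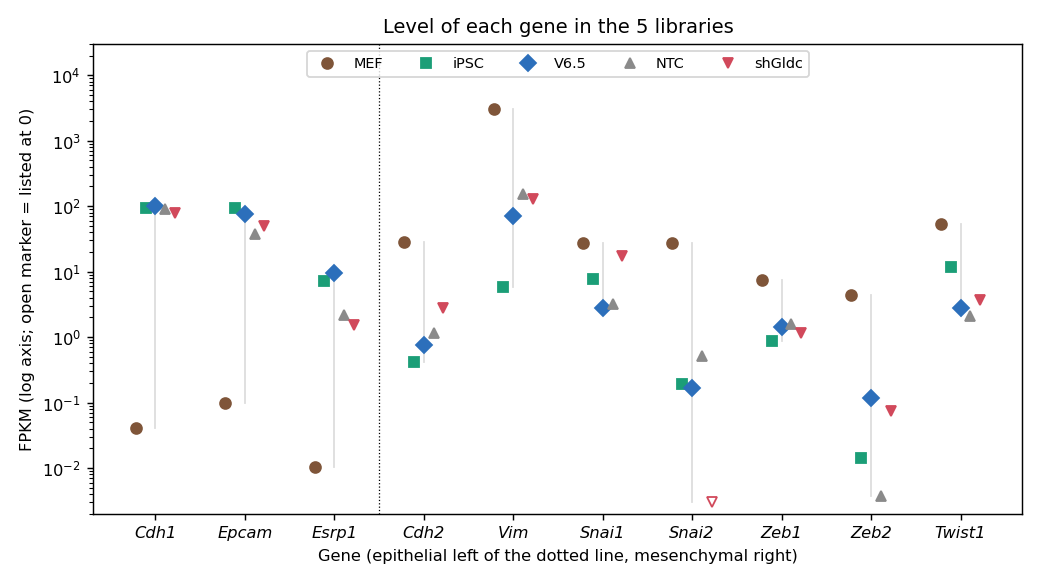
FPKM of each of the 10 genes (log axis) in the 5 libraries, 1 marker per library, with an open marker for a value listed at 0. The 3 epithelial genes lie below 0.1 FPKM in MEFs and above 1 in the 4 other libraries, and for each of the 7 mesenchymal genes MEFs hold the highest value.

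Cdh1 (chromosome 8, 106603351 to 106670246, plus strand, 16 exons, mm10) was at 0.0408 FPKM in MEFs, 94.2 in iPSCs, 102 in V6.5 cells, 89.7 in NTC, and 79.4 in shGldc. The 4 pluripotent libraries lay close together and MEFs lay near 0, a level of about 4.46 fragments over the whole transcript. The V6.5 level was 2494 times the MEF level, and the counting error of the MEF value alone gives a 95% interval of 1020 to 8360. On the log2 scale the difference was 9.50 in V6.5 cells and 9.39 in iPSCs, which placed Cdh1 at rank 11 of 12840 genes and rank 23 of 13032 genes from the top.

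Epcam, an adhesion protein of the epithelial cell surface (chromosome 17, 87635979 to 87651129, plus strand, 10 exons), was at 0.0982 FPKM in MEFs, 93.0 in iPSCs, 77.2 in V6.5 cells, 37.7 in NTC, and 49.9 in shGldc. It was therefore high in every pluripotent library, with the V6.5 derivatives of the second table at the lower end. The log2 ratio over MEFs was 8.61 in V6.5 cells and 8.88 in iPSCs, at rank 33 from the top in each comparison. The MEF value stood for about 4.94 fragments, and the ratio of 786 in V6.5 cells has a counting interval of 335 to 2440.

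Esrp1 encodes a splicing regulator that selects the epithelial exons of its targets (chromosome 4, 11331933 to 11386783, minus strand, 16 exons). Its FPKM was 0.0103 in MEFs, 7.21 in iPSCs, 9.38 in V6.5 cells, 2.18 in NTC, and 1.51 in shGldc. It was the weakest of the 3 epithelial genes in each library and spread most among the pluripotent ones. The MEF value corresponds to about 0.976 fragment, under the floor of 3 fragments, and the ratio of 914 in V6.5 cells has a counting interval of 161 to 39000. The log2 ratios, 6.43 in V6.5 cells and 6.05 in iPSCs, depend on the 0.1 added to each value. An annotated gene on the opposite strand, Gm26663, overlaps exons of Esrp1, and whether counting used strand is not given in the sources used here. Its paralogue Esrp2 was at 0.564 FPKM in MEFs, 2.03 in iPSCs, 2.82 in V6.5 cells, 4.35 in NTC, and 7.34 in shGldc, so Esrp2 stood below Esrp1 in iPSCs and V6.5 cells and above it in the other 3 libraries.

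N-cadherin ran the other way. Cdh2 (16 exons) was at 28.1 FPKM in MEFs, 0.412 in iPSCs, 0.747 in V6.5 cells, 1.14 in NTC, and 2.82 in shGldc. MEFs were 37.7 times above V6.5 cells and 68.4 times above iPSCs, the latter with a counting interval of 51.0 to 94.2. The log2 ratio over MEFs was -5.06 in V6.5 cells and -5.79 in iPSCs.

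Cdh1 and Cdh2 together describe the cadherin switch. In MEFs the Cdh2 level was 689 times the Cdh1 level, with a counting interval of 282 to 2310 from the few Cdh1 fragments, and 201 times with 0.1 FPKM added to both. The ratio of Cdh1 to Cdh2 was 229 in iPSCs, 136 in V6.5 cells, 78.4 in NTC, and 28.2 in shGldc. Among the 17 classical cadherins examined, Cdh1 held 0.0185% of the summed FPKM in MEFs and 82.7%, 80.4%, 78.4%, and 79.8% in iPSCs, V6.5 cells, NTC, and shGldc. Cdh2 held 12.8% in MEFs and between 0.361% (iPSCs) and 2.83% (shGldc) in pluripotent libraries. The main cadherin of MEFs was Cdh11, a cadherin of mesenchyme, with 61.7% of the sum, and Cdh3 (P-cadherin) held 20.1%. The summed level of the 17 genes differed far less than their make-up, from 99.5 FPKM in shGldc to 220.2 in MEFs.

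**Figure D2:**
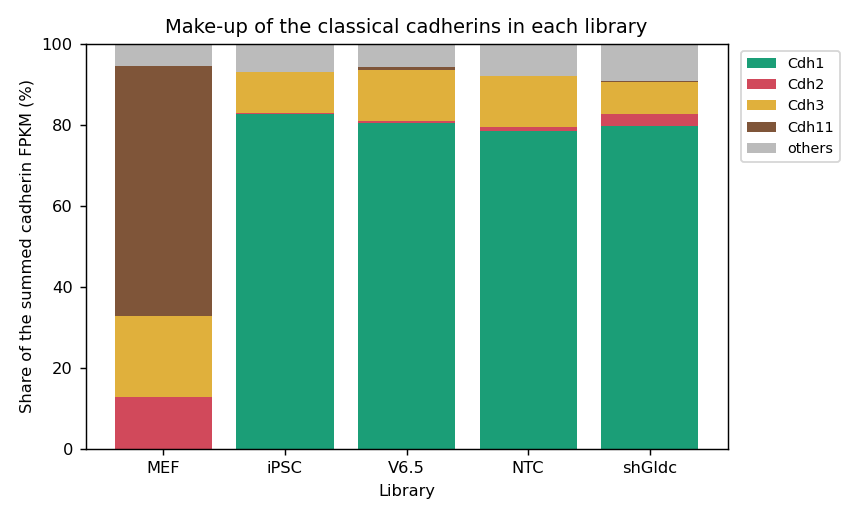
Share of the summed FPKM of 17 classical cadherins (percent, bars stacked to 100) held by Cdh1, Cdh2, Cdh3, Cdh11, and the others in each library. Cdh11 fills 61.7% of the MEF bar and Cdh1 between 78.4% and 82.7% of each pluripotent bar.

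Vim, the intermediate filament protein of mesenchymal cells, is on chromosome 2 (13573927 to 13582826, plus strand, 9 exons). It was the most abundant of the 10 genes in MEFs, at 3074 FPKM, and the gene of rank 6 among all genes of that library. It was at 5.79 FPKM in iPSCs, 70.2 in V6.5 cells, 153.9 in NTC, and 129.0 in shGldc. Vim was therefore lower in every pluripotent library than in MEFs, but iPSCs stood well apart from the V6.5 libraries. The log2 ratio over MEFs was -5.45 in V6.5 cells and -9.03 in iPSCs, the latter at rank 31 of 13032 genes from the bottom.

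Snai1, a zinc-finger repressor of Cdh1 that acts in gastrulation (chromosome 2, 167538195 to 167542814, plus strand, 3 exons), was at 26.9 FPKM in MEFs, 7.65 in iPSCs, 2.74 in V6.5 cells, 3.22 in NTC, and 17.1 in shGldc. It kept a level well above 1 FPKM in every library, shGldc came closest to MEFs, and the log2 ratio over MEFs was -3.25 in V6.5 cells and -1.80 in iPSCs. Snai2, its relative of neural crest and mesenchyme (chromosome 16, 14705852 to 14709385, plus strand, 3 exons), was at 27.1 FPKM in MEFs, 0.191 in iPSCs, 0.168 in V6.5 cells, and 0.515 in NTC, and was listed at 0 in shGldc. The V6.5 and iPSC values of Snai2 stood for about 8.38 and 8.56 fragments. The MEF level was 161 times the V6.5 level, with a counting interval of 82.8 to 365, and the log2 ratios were -6.66 in V6.5 cells and -6.55 in iPSCs. About 1% of the 50-base stretches of Snai2 also occur in transcripts of other genes.

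The third family member, Snai3, reversed the pattern. It was at 0.0364 FPKM in MEFs, 12.8 in iPSCs, 12.4 in V6.5 cells, 6.09 in NTC, and 4.66 in shGldc. Of the summed FPKM of the 3 Snail genes, Snai1 and Snai2 held 49.8% and 50.1% in MEFs, whereas Snai3 held 62.1% in iPSCs, 81.0% in V6.5 cells, and 62.0% in NTC. In shGldc Snai1 held 78.6%.

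Repressors of the Snail and Zeb families bind the E-box CAGGTG, which reads CACCTG on the other strand. Promoter windows of 300 bases (250 before to 50 after the start, RefSeq, GRCm38.p6) were at hand for Epcam, Vim, Snai1, Zeb2, and Twist1, 5 of the 10 genes, with 8 windows in all. Either spelling occurred in the windows of Epcam (187 and 19 bases before the start) and Snai1 (126 bases before it), and in none of the windows of Vim, Twist1, and Zeb2. Of all 32851 promoter windows, 20.2% hold the motif and 2.9% hold it more than once. The Epcam and Snai1 windows are shown because they hold the motif, which is in capitals. Epcam lies at chr17:87635729-87636028 on the plus strand and Snai1 at chr2:167537945-167538244 on the plus strand. A match describes these letters and is not a bound site.
Epcam: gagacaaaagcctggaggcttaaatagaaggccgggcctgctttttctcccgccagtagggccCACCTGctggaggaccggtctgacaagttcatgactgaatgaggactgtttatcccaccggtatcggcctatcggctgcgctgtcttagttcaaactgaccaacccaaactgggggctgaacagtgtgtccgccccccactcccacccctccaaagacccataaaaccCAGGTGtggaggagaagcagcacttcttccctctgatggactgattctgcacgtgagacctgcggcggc
Snai1: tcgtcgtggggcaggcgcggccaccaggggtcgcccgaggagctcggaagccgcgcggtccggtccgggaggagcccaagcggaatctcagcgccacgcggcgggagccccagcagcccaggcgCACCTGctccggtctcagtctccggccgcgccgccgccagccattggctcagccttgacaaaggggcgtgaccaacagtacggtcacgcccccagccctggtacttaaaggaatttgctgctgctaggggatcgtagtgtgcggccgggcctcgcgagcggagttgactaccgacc

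Twist1, a basic helix-loop-helix factor of mesoderm and limb mesenchyme (chromosome 12, 33957671 to 33959829, plus strand, 2 exons), was at 53.5 FPKM in MEFs, 11.8 in iPSCs, 2.77 in V6.5 cells, 2.10 in NTC, and 3.66 in shGldc. It was the highest of the 5 repressors in MEFs, and iPSCs stood above the V6.5 libraries. The log2 ratio over MEFs was -4.22 in V6.5 cells and -2.17 in iPSCs. Its relative Twist2 was at 113.9 FPKM in MEFs and 3.55 or lower in the pluripotent libraries, so that the sum of both was 167.4 in MEFs, 12.2 in iPSCs, 6.31 in V6.5 cells, 2.21 in NTC, and 4.14 in shGldc.

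The miR-200 family binds the Zeb messages through its seed, bases 2 to 8 of the mature microRNA. The mature sequences (RefSeq) fall into 2 seed groups, miR-141 with miR-200a and miR-200b with miR-200c and miR-429, and are shown with the seed in capitals.
miR-141-3p: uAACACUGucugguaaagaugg
miR-200a-3p: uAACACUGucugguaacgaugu
miR-200b-3p: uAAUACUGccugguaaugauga
miR-200c-3p: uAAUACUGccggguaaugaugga
miR-429-3p: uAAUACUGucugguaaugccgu

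The letters that pair with these seeds, CAGTGTT and CAGTATT, were counted in each of the 10 genes. The longest annotated 3′ UTR among the RefSeq-matched transcripts of a gene was used. Zeb2 held 3 and 5 of them in 1453 bases, 8 in all, and it was the only one of 2502 3′ UTRs of like length (0.8 to 1.2 times its own) with so many. Zeb1 held 4 and 5, 9 in all, in 2404 bases, and it was the only one of 2231 with so many. At least 1 match occurred in 30.0% and 47.8% of the 3′ UTRs of like length. Esrp1 and Snai2 held 2 matches each, Snai1 held 1, and the other 5 genes none. Precursor transcripts of the miR-200 family reached at most 0.39 FPKM in any library, none passed the filter, and these libraries do not measure mature microRNAs.

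Both Zeb genes encode large zinc-finger and homeodomain repressors. Zeb1 was at 7.47 FPKM in MEFs, 0.870 in iPSCs, 1.42 in V6.5 cells, 1.57 in NTC, and 1.16 in shGldc. In V6.5 cells over MEFs it had the smallest log2 ratio of the 7 mesenchymal genes (-2.32), whereas in iPSCs over MEFs its ratio of -2.96 was larger in size than those of Snai1 and Twist1. Zeb2 was at 4.45 FPKM in MEFs, 0.0145 in iPSCs, 0.119 in V6.5 cells, 0.00369 in NTC, and 0.0745 in shGldc. The 4 pluripotent values of Zeb2 stood for about 1.80, 16.5, 0.603, and 12.1 fragments, so the iPSC and NTC values were under the floor of 3 fragments. The MEF level of Zeb2 was 37.3 times the V6.5 level, with a counting interval of 23.2 to 64.6, and the log2 ratios over MEFs were -4.38 in V6.5 cells and -5.31 in iPSCs. Both genes overlap annotated genes on the opposite strand (Gm10125 for Zeb1, Gm27761 and Zeb2os for Zeb2).

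The mesenchymal genes of the pluripotent libraries were set beside 10 fibroblast markers, whose summed FPKM was 7101 in MEFs, 13.7 in iPSCs, 52.0 in V6.5 cells, 11.4 in NTC, and 5.46 in shGldc. In V6.5 cells every fibroblast marker was above 0, at 0.559% to 5.28% of its MEF level, with a median of 1.63%. Cdh2 (2.66%), Vim (2.28%), Snai2 (0.621%), Zeb2 (2.68%), and Twist1 (5.17%) lay inside that range, and Snai1 (10.2%) and Zeb1 (19.0%) above it. In NTC, where 5 of the 10 markers were listed at 0 and none exceeded 2.86% of MEFs, 5 of the 7 genes lay above the markers, with Zeb1 at 20.9%, Snai1 at 11.9%, Vim at 5.0%, Cdh2 at 4.07%, and Twist1 at 3.94%. In iPSCs Snai1, Zeb1, and Twist1 lay above the highest marker (5.13%), and in shGldc Cdh2, Snai1, and Zeb1 did so (8.63%). In these bulk samples, fewer cells of a type and less RNA per cell cannot be told apart, and the part of fibroblast RNA in the V6.5 values was not tested. The MEF library also held macrophage transcripts, with 8 of 8 markers at an FPKM of 1 or more and a sum of 192.0, against 9.44 to 20.9 in the pluripotent libraries, where only Cd68 reached 1. Macrophages are known to express Vim and Zeb2, and their part in the MEF values was not tested.

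**Figure D3:**
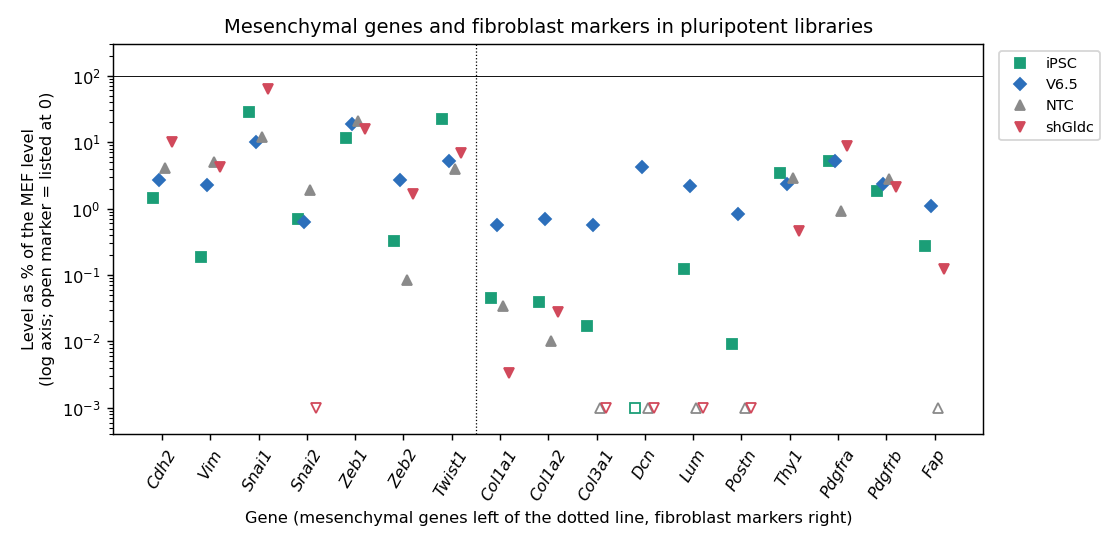
Level of the 7 mesenchymal genes and of 10 fibroblast markers in the 4 pluripotent libraries as a percentage of the MEF level (log axis), with an open marker for a value listed at 0. V6.5 cells are the only library with all 10 fibroblast markers above 0, between 0.559% and 5.28% of MEFs, and Zeb1 lies between 11.6% and 20.9% in all 4.

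Between the 2 pluripotent cell types, the epithelial genes lay within 2-fold and the mesenchymal genes split. Of 12323 genes tested in iPSCs over V6.5 cells, 10.1% were called higher and 7.44% lower. None of the 3 epithelial genes was called, with log2 ratios of -0.11 for Cdh1, 0.27 for Epcam, and -0.37 for Esrp1. Of the 7 mesenchymal genes, 4 passed the filter. Snai1 was higher in iPSCs by 1.45 (2.79-fold in FPKM) and Twist1 by 2.05 (4.26-fold), whereas Vim was lower by 3.58 (12.1-fold) and Zeb1 differed by -0.65. Cdh2, Snai2, and Zeb2 stayed under an FPKM of 1 in both cell types. The fibroblast markers were also lower in iPSCs, with 5 of the 7 that passed called lower and none higher, and the part of this difference in the Vim ratio was not tested.

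**Figure D4:**
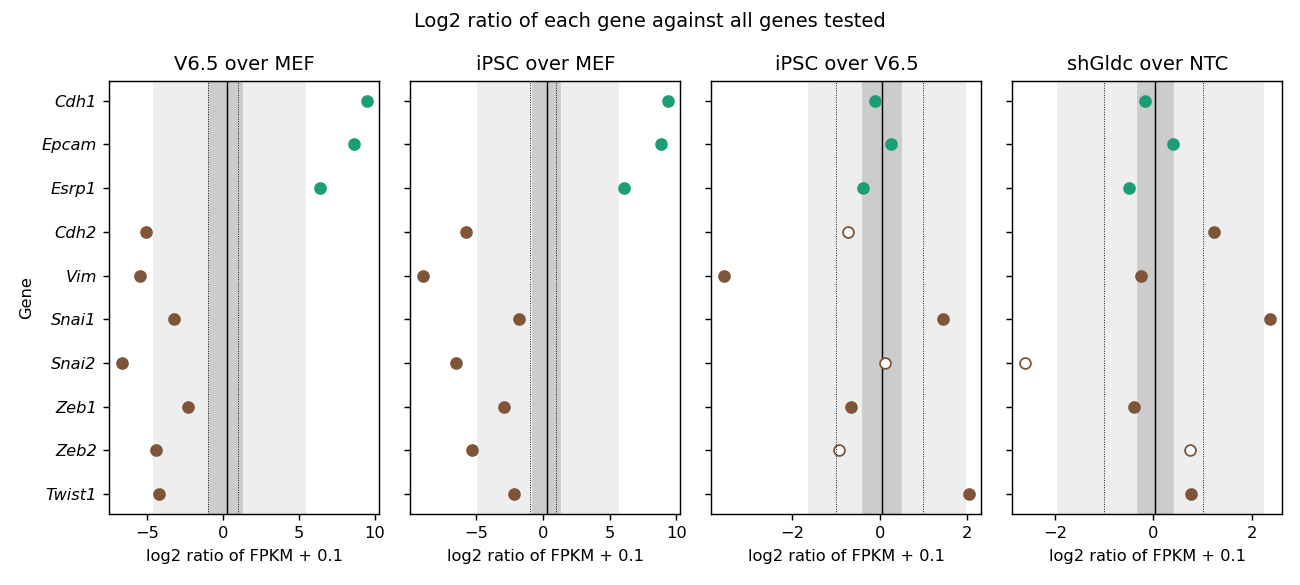
Log2 ratio of FPKM + 0.1 for each gene in 4 comparisons, with epithelial genes in green and mesenchymal genes in brown, over the middle 50% (dark band), the central 95% (light band), and the median (line) of all genes tested, and open markers for genes that did not pass the filter. All 10 genes lie outside the dotted 2-fold lines against MEFs, whereas in shGldc over NTC Snai1 (2.38) and Cdh2 (1.23) do so among the genes that passed.

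In the shGldc library Snai1 and Cdh2 stood higher than in NTC, and the 3 epithelial genes lay within 2-fold. Of 11969 genes tested in shGldc over NTC, 8.97% were called higher and 7.68% lower. Snai1 was at 3.22 FPKM in NTC and 17.1 in shGldc, a ratio of 5.32 and a log2 difference of 2.38, at rank 271 from the top and above the central 95% of all genes (-1.93 to 2.24). These levels stood for about 152 and 801 fragments, so counting error is small beside the difference. Cdh2 was at 1.14 and 2.82 FPKM, a ratio of 2.46 and a log2 difference of 1.23, at rank 789. With 1 FPKM added in place of 0.1 the Cdh2 difference was 0.83 and it was no longer called, whereas Snai1 ranged from 2.10 to 2.60 over the alternatives.

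The other members that passed lay within 2-fold between shGldc and NTC. Cdh1 differed from NTC by -0.18, Epcam by 0.40, and Esrp1 by -0.51 on the log2 scale. Vim differed by -0.25, Zeb1 by -0.40, and Twist1 by 0.77, and Snai2 and Zeb2 did not pass the filter. Cdh1 remained 28.2 times Cdh2. Simple-epithelial keratins stood higher in the same library. Krt19 was at 1.36 FPKM in NTC and 12.8 in shGldc, Krt8 at 9.09 and 79.4, and Krt18 at 11.9 and 95.4. Of the 10 intermediate filament genes that passed, 5 were called higher and none lower, beside 8.97% and 7.68% of all genes. Over untreated V6.5 cells 3 of 11 were higher and 3 lower, beside 9.89% and 13.9% of all genes. Of 6 keratinocyte and other epithelial markers, the 3 that passed (Krt15, Krt7, and Perp) were all called higher, from 1.37 to 3.50. Krt7 is counted among the intermediate filament genes as well. Krt15 and Krt7 passed only through shGldc, and over untreated V6.5 cells 4 of the 6 passed, with 1 higher, 1 lower, and Krt7 at -0.46 and Perp at 0.38. Krt8 (2.98), Krt18 (2.19), and Krt19 (1.40) were higher in shGldc than in V6.5 cells as well. Of the fibroblast markers 4 passed, with Pdgfra higher (2.59) and Col1a1 (-2.57) and Thy1 (-2.55) lower, and of the endothelial markers 2 passed, with Tie1 higher (3.47), and both Pdgfra and Tie1 passed only through shGldc. Whether these markers and Snai1 come from the same cells was not tested. Of 6 primitive streak and mesoderm markers, the 4 that passed lay within 2-fold, from -0.13 (Mixl1) to 0.34 (Eomes). Over untreated V6.5 cells T (3.30) and Mixl1 (1.99) were called higher, and both passed only through shGldc. The other 2 that passed were not called. All 10 pluripotency markers passed, of which 1, Fgf4, was called lower (-1.73), and 9 lay below NTC, with a median of -0.56 beside 0.04 for all genes. Over untreated V6.5 cells all 10 lay below and 4 were called lower, beside 13.9% of all genes. Their median there was -0.43, beside -0.02 for all genes.

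NTC was also set against untreated V6.5 cells, from which it differs by the control shRNA and by the separately made table. Of 12048 genes tested, 4.99% were called higher in NTC and 10.3% lower. Epcam was 2.05-fold lower (-1.03, or -0.97 and no longer called with libraries rescaled to equal sums), Esrp1 4.29-fold lower (-2.05), and Vim 2.19-fold higher (1.13), while Cdh1 differed by -0.18, Snai1 by 0.22, Cdh2 by 0.55, Zeb1 by 0.13, and Twist1 by -0.38. In the same comparison the median of the wider mesenchymal genes was -1.73, with 16 of 25 lower and 1 higher, 5 of the 7 fibroblast markers that passed were lower and none higher, and 7 of 26 wider epithelial genes were lower and none higher. Vim therefore ran against most of the wider mesenchymal genes there. Among the 7 mesenchymal members, 5 passed, with a median of 0.22, and only Twist1 of these lay below 0. Of 6 streak and mesoderm markers 4 passed, with T (3.08) and Mixl1 (2.13) higher in NTC, both of which passed only through NTC, and Eomes (0.53) and Gsc (-0.55) within 2-fold. Esrp1 and Epcam differed more between these control libraries than between shGldc and NTC. In shGldc over untreated V6.5 cells, 9.89% of 12237 genes were called higher and 13.9% lower. Snai1 was then higher by 2.60 (6.25-fold), Cdh2 higher by 1.78 (3.77-fold), and Esrp1 lower by 2.56 (6.22-fold). Cdh2, at 0.747 FPKM in V6.5 cells, passed this comparison only through shGldc. In NTC over V6.5 cells the table and the control shRNA cannot be told apart, and in shGldc over V6.5 cells the Gldc level differs along with them.

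Lists of related genes were counted in the same way, each chosen for its role. The shares of all genes to read them against are 30.3% higher and 23.3% lower in V6.5 cells over MEFs and 31.5% and 21.3% in iPSCs over MEFs. Of 30 wider epithelial genes, 26 passed in V6.5 cells over MEFs, of which 23 were called higher and 1 (Cdh3, -1.47) lower, with a median log2 ratio of 4.65 beside 0.25 for all genes. In iPSCs over MEFs 29 passed, 27 were higher and 1 lower, with a median of 4.96. The highest were Elf3, an epithelial transcription factor, in V6.5 cells (8.74) and Ap1m2, a subunit of the epithelial sorting adaptor, in iPSCs (9.32). Of 28 wider mesenchymal genes listed, 27 passed in each comparison. None was called higher, 25 were lower in V6.5 cells with a median of -4.38, and 26 were lower in iPSCs with a median of -4.83. Itga5, the alpha subunit of a fibronectin receptor, was the highest in both, at -0.94 and -0.83. The collagen gene Col5a2 was the lowest in V6.5 cells (-7.42) and Acta2, the smooth muscle actin of myofibroblasts, in iPSCs (-11.55).

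Of 24 regulators of the transition, 22 passed in V6.5 cells over MEFs, with 6 higher and 13 lower (30.3% and 23.3% of all genes) and a median of -1.56 beside 0.25. The list mixes factors of both states, such as Prrx1 and Ovol2, so opposite shifts can cancel in its median. Some of its genes, Ovol2 and Esrp2 among them, are also counted with the wider epithelial genes. In iPSCs over MEFs 23 passed, with 9 higher and 11 lower (31.5% and 21.3% of all genes) and a median of 0.06 beside 0.31, which became -1.35 among regulators that reached an FPKM of 5. In shGldc over NTC 16 passed, with 2 higher (Id2, 1.68, and Hmga2) and 2 lower (Tcf4, -1.72, and Id1, -1.39). Of all genes, 8.97% were higher and 7.68% lower, and the median of the list was -0.23 beside 0.04. Over untreated V6.5 cells Id2 was at -0.67 and Id1 at 0.75, the opposite direction, whereas Hmga2 (3.31) and Tcf4 (-1.46) kept theirs. Ovol2, a repressor of Zeb1 that guards the epithelial state, was listed at 0 in MEFs and at 9.41 FPKM in iPSCs, 4.60 in V6.5 cells, 2.44 in NTC, and 2.18 in shGldc. Prrx1, a homeobox factor of mesenchyme, was at 35.6 FPKM in MEFs, 0.00607 in iPSCs, and 0.394 in V6.5 cells, and was listed at 0 in NTC and shGldc. Hmga2, a chromatin protein known to induce Snai1 and Twist1, was at 78.8 FPKM in MEFs, 2.39 in iPSCs, 2.43 in V6.5 cells, 8.85 in NTC, and 25.0 in shGldc, with a log2 ratio of 1.49 in shGldc over NTC.

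Of 14 partners and relatives of Epcam, 13 passed in each comparison with MEFs, of which 6 were called higher and 4 lower in V6.5 cells and likewise in iPSCs, beside 30.3% higher and 23.3% lower of all genes in V6.5 cells and 31.5% and 21.3% in iPSCs. In shGldc over NTC 10 passed, with 3 higher and none lower (8.97% and 7.68% of all genes), whereas over untreated V6.5 cells 11 passed, with 1 higher and 2 lower (9.89% and 13.9% of all genes).

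The catenins tie E-cadherin and N-cadherin alike to actin. Of 10 listed, 8 passed in V6.5 cells over MEFs, in iPSCs over MEFs, and in shGldc over NTC. In V6.5 cells over MEFs 2 were higher, 2 lower, and 4 within 2-fold, with a median of 0.04, in iPSCs over MEFs 3 were higher, 2 lower, and 3 within 2-fold, with a median of -0.12. These shares are near those of all genes. In shGldc over NTC, where 8.97% of all genes were called higher and 7.68% lower, all 8 lay within 2-fold. Beta-catenin (Ctnnb1) was between 149 FPKM (NTC) and 204 (V6.5 cells) in all 5 libraries. Of 17 corepressors and partners of the Snail and Zeb factors, all passed. In V6.5 cells over MEFs 8 were higher and 3 lower (median 0.81), and in iPSCs over MEFs 10 were higher and 3 lower (median 1.14), beside 30.3% and 23.3% of all genes in V6.5 cells (median 0.25) and 31.5% and 21.3% in iPSCs (median 0.31). All 17 lay within 2-fold in shGldc over NTC. Of 20 genes of the TGF-beta pathway, the main inducer of the transition, none was called higher than in MEFs, 12 were called lower in V6.5 cells and 13 in iPSCs, with medians of -1.89 and -1.97, beside 23.3% and 21.3% of all genes called lower. The ligand gene Tgfb1 was at 65.1 FPKM in MEFs, 17.0 in iPSCs, 13.6 in V6.5 cells, 12.4 in NTC, and 3.37 in shGldc. It was the single gene called (-1.84) of the 13 pathway genes that passed in shGldc over NTC.

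**Figure D5:**
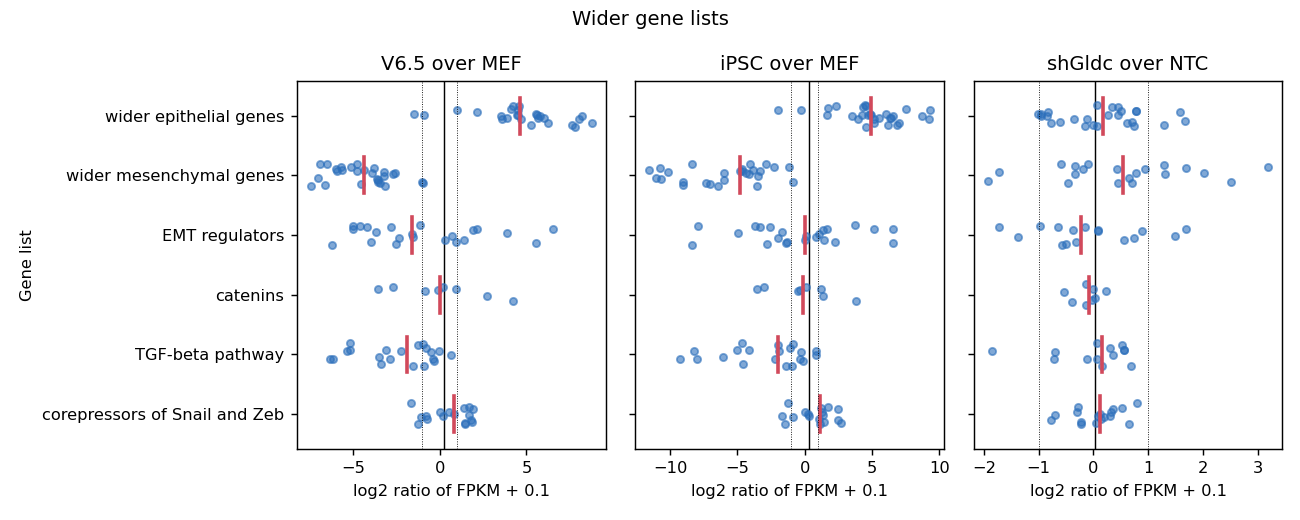
Log2 ratio of FPKM + 0.1 of each gene that passed in 6 lists (points, spread vertically for legibility) with the list median (red bar), the median of all genes (black line), and the 2-fold lines (dotted). Against MEFs the wider epithelial genes have medians of 4.65 and 4.96 and the wider mesenchymal genes of -4.38 and -4.83, while in shGldc over NTC these medians are 0.17 and 0.55.

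In shGldc over NTC 8.97% of all genes were called higher and 7.68% lower. Of 26 wider epithelial genes that passed, 3 were higher and 1 lower (median 0.17, beside 0.04 for all genes). Of these 3, Marveld2 and Dsp passed only through shGldc, and over untreated V6.5 cells they were at 0.02 and -0.97. Of 20 wider mesenchymal genes, 6 were higher and 2 lower (median 0.55), from Bgn, a proteoglycan (3.19), to Mmp2, a matrix metalloproteinase (-1.93). The direction of this list turned with the control. Over untreated V6.5 cells 1 of 25 was higher and 14 were lower, with a median of -1.07, and NTC itself had 1 higher and 16 lower than V6.5 cells, with a median of -1.73. Bgn, at 36.5 FPKM in V6.5 cells, 0.0702 in NTC, and 1.46 in shGldc, passed over NTC only through shGldc and was lower by 4.56 in shGldc than in V6.5 cells. Of 26 wider epithelial genes, 1 was higher and 8 were lower in shGldc than in V6.5 cells, beside 9.89% and 13.9% of all genes. In iPSCs over V6.5 cells 6 of 29 wider epithelial genes were higher and 2 lower (median 0.50), and 11 of 24 wider mesenchymal genes were lower and none higher (median -0.71), beside 10.1% higher and 7.44% lower of all genes and a median of 0.04. Lox, the collagen crosslinking oxidase, was the lowest at -4.75.

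The genes whose levels followed each member most closely over the 5 libraries were found by the root mean square difference of centred log2(FPKM + 0.1) levels among 13656 genes. With 5 single libraries this describes a shape and not a relation. The pattern of Cdh1 was nearest to Rbmxl2 (0.19) and the pluripotency genes Nanog (0.24) and Esrrb (0.26). Epcam was nearest to Eras (0.26), a Ras-like gene of mESCs, and Esrp1 to Rab25 (0.24), a GTPase of epithelial vesicle recycling. Cdh2 was nearest to Dpysl3 (0.12), Snai1 to Srr (0.26), which encodes serine racemase, and Twist1 to Cpne8 (0.10). Zeb1 was nearest to Oxct1 (0.11), Zeb2 to Efemp2 (0.10), a protein of elastic fibres, and Snai2 to Fcer1g (0.46), which is among the macrophage markers. Vim had no close match, the nearest being Gamt and Olfml3 at 0.87 each. With a pseudocount of 1, 6 of the 30 nearest genes were again among the nearest.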

How the data were processed

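RNA was sequenced from 5 samples, 1 library per group. The authors mapped reads to mm10 with TopHat2 v2.1.0, assembled transcripts with StringTie v1.3.4d, and computed expression with Ballgown, and deposited FPKM values in 2 separately made tables (3 and 2 libraries), each with 24421 genes. The submitters' processing notes also name SAMtools 1.7, and they list both mm9 and mm10 without a role, so mm10 rests on the study's methods. The gene annotation, filters, and strand setting are not given in the sources used here. FPKM does not correct for a different composition of the RNA. The 10 genes and all gene lists were chosen with earlier results of these data known.

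Groups came from the labels. Ratios are log2(FPKM + 0.1) differences, which understate the change of low genes, for genes that reached an FPKM of 1 in either library compared, and a gene was called at 2-fold. No test was run, because each group was 1 library. Ratios over V6.5 cells of the second table's libraries cross separately made tables. Depth was estimated from the steps between low FPKM values times transcript length over 5723 genes with 1 transcript. Fragment numbers use the longest RefSeq-matched GENCODE M21 transcript, the floor was 3 fragments, and 95% exact Poisson intervals cover counting error only. Scripts were tested on simulated data. Named genes were the 10 members, the highest and lowest gene of each list, and for each member the 3 nearest patterns. Regulators, catenins, and cadherins that reached an FPKM of 5 could also be named. Krt8, Krt18, Tgfb1, Snai3, Esrp2, and several marker genes were named for their role with their values seen. Alternatives were a pseudocount of 1 or 0.01, no filter or a minimum FPKM of 5, a 4-fold threshold, rescaling to equal sums or upper quartiles, median centring, and V6.5 cells in place of NTC. NTC in place of V6.5 cells over MEFs and V6.5 cells in place of NTC for the lists were added after seeing the data. Calculations used scipy 1.17.1, pandas 2.3.3, and numpy 2.4.6 in Python 3.11.15, and plots used matplotlib 3.10.9.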

Additional observations from a re-analysis of the deposited data

Results flagged for a closer look

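Among the listed genes that reached an FPKM of 1 in MEFs, iPSCs, or V6.5 cells, 3 lay at least 2-fold to opposite sides in the pluripotent cell types when each was set against the same MEF library, and the difference itself was not tested because each cell type was 1 library. Of these 3, Id1 passed the filter in both comparisons, whereas Lef1 stayed under an FPKM of 1 in MEFs and iPSCs and Gfap in MEFs and V6.5 cells. Id1, an inhibitor of helix-loop-helix factors such as Twist1, was at 46.3 FPKM in MEFs, 96.0 in iPSCs, and 15.2 in V6.5 cells, with log2 ratios over MEFs of 1.05 in iPSCs and -1.61 in V6.5 cells. The Id1 ratio in iPSCs lay only just past 2-fold, where the median of all genes was 0.31. Lef1, a nuclear partner of beta-catenin, was at 0.408 FPKM in MEFs, 0.151 in iPSCs, and 1.16 in V6.5 cells, with log2 ratios of -1.02 and 1.31. Gfap, an intermediate filament gene of astrocytes, was at 0.459, 1.29, and 0.0299 FPKM, with log2 ratios of 1.31 and -2.10. None of the 10 switch genes did so.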

How the results depend on the processing

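No paired analysis was possible because each group was 1 library. Against MEFs, all 3 epithelial genes stayed called higher in V6.5 cells and in iPSCs under every alternative run. The 7 mesenchymal genes stayed called lower, also with NTC in place of V6.5 cells, except that 6 were called with a minimum FPKM of 5 in both comparisons and with a 4-fold threshold in iPSCs. No called ratio of these 10 genes reversed. In shGldc over NTC the number of mesenchymal genes called fell from 2 to 1 with a pseudocount of 1, an FPKM of at least 5, or a 4-fold threshold (Snai1 remained, Cdh2 was lost), and 1 epithelial gene (Esrp1) was called with V6.5 cells as control. In NTC over V6.5 cells the mesenchymal count of 1 became 3 with no filter and 0 at 4-fold, and the epithelial count of 2 became 1 with equal sums, centring, or 4-fold. In shGldc over V6.5 cells the mesenchymal count became 1 with an FPKM of at least 5 or 4-fold. The count over all genes became, at 4-fold, 3594 (V6.5 over MEF), 3613 (iPSC over MEF), 476 (iPSC over V6.5), 639 (shGldc over NTC), 467 (NTC over V6.5), and 985 (shGldc over V6.5). For the last 4 of these in the same order, no filter gave 3476, 3838, 3570, and 4839, and an FPKM of at least 5 gave 1136, 797, 790, and 1491. A pseudocount of 1 gave 1309, 1192, and 1055 for the first 3 of those 4. The median of the wider epithelial genes was 3.11 (pseudocount 1), 5.95 (0.01), and 5.63 (FPKM of at least 5) in V6.5 over MEF, and 3.05, 6.86, and 6.06 in iPSC over MEF. With an FPKM of at least 5, the median of the regulators was -2.32, -1.35, and 1.02 (V6.5 over MEF, iPSC over MEF, iPSC over V6.5) and that of the Epcam partners was 1.14 (iPSC over MEF). The median of the classical cadherins was -1.71 with equal sums and -1.71 with upper quartiles (V6.5 over MEF), and -0.84 with no filter (iPSC over MEF). The median of the intermediate filaments in shGldc over NTC was -0.10 with no filter. With V6.5 cells in place of NTC, added for the lists after seeing the data, the medians in shGldc over NTC were -1.07 (wider mesenchymal genes), -0.46 (Epcam partners), and -0.059 (intermediate filaments), all above 0 over NTC. With 0.1 added to both levels the ratio of Cdh1 to Cdh2 in MEFs was 0.00499. Of the ratios of single members, 277 moved by less than 0.594, the robust SD of NTC over V6.5 cells, and 43 by more. The cause of these shifts was not tested. Depth limits the values of Cdh1, Epcam, and Esrp1 in MEFs and of Snai2 and Zeb2 in pluripotent libraries.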

Other observations

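The keratin pair of simple epithelia stood high in the iPSCs as well as in shGldc, while it stood low in untreated V6.5 cells and NTC. Krt8 was at 171 FPKM in iPSCs, 79.4 in shGldc, 9.98 in V6.5 cells, and 9.09 in NTC, and Krt18 was at 234, 95.4, 20.8, and 11.9 FPKM. The same libraries held the highest Snai1 levels among the pluripotent ones (17.1 FPKM in shGldc and 7.65 in iPSCs). Vim and the keratins did not run in the same order. Of the claudins listed with Epcam, Cldn1 was at 1.11 FPKM in MEFs and under 0.1 in every pluripotent library, whereas Cldn6 was at 75.0 FPKM in iPSCs, 60.9 in V6.5 cells, 20.0 in NTC, and 44.4 in shGldc, and Cldn7 was at 43.0, 27.3, 5.95, and 15.2. These genes were singled out after their values were seen.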
